A study of Mus musculus with 20 samples.

Results

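Inguinal subcutaneous fat taken at metestrus was compared with that taken at proestrus, with 5 mice at each stage and 1 polyA RNA-seq library per mouse. These are 10 of the 20 libraries of a study of the estrous cycle in 8-week-old female C57BL/6 mice, and the other 10, 5 at estrus and 5 at diestrus, entered the same fit and are set beside the result. All groups were untreated and unmutated, and the stage of each mouse had been read from vaginal smears and serum hormones. Levels are the authors' FPKM, fragment counts that they scaled to transcript length and to the mapped fragments of each library, so that each value is a share of its library. Differences are metestrus minus proestrus on log2(FPKM + 1), a scale on which changes of low genes look smaller than they are, and come from limma over the 13987 genes that reached 1 FPKM in 5 or more of the 20 libraries. A gene was called when its p, adjusted by Benjamini-Hochberg over these genes, was under 0.05, and it is said to rise or fall at metestrus.

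Proestrus ends with the surge that triggers ovulation, and metestrus follows estrus, when the ruptured follicles become corpora lutea that secrete progesterone. The inguinal pad of a female mouse holds fat cells, the ducts of a mammary gland and a lymph node, so RNA from it mixes adipocytes, stroma, epithelium and lymphocytes. Steroid hormones act on these cells mainly through nuclear receptors. The receptors for glucocorticoids and progesterone belong to one subfamily and recognise the same DNA element, a pair of inverted copies of a core close to AGAACA. Insulin restrains another group of genes, the targets of FoxO transcription factors, which rise with fasting. Serum hormone values were not analysed here.

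The fat label was borne out by Adipoq, the gene of adiponectin, at 1179 to 2081 FPKM in metestrus pads and 1211 to 1536 FPKM in proestrus pads. Correlations over all genes averaged 0.969 between metestrus libraries, 0.972 between proestrus libraries and 0.970 across the stages. Mitochondrial genes took 24.1% to 31.4% of the FPKM at metestrus and 27.9% to 33.4% at proestrus. Some libraries stood apart. In metestrus-3 the 16 skeletal muscle markers summed to 10167 FPKM, against 9.69 to 97.6 in the other metestrus pads and 29.2 to 334 in the proestrus pads. Markers of B and plasma cells summed to 37.7 and 29.9 FPKM in metestrus-3 and metestrus-4 and to 30.2 in proestrus-2, while the other 7 libraries had 306 to 869. Proestrus-2 had the lowest weight of the 10 in a fit that weights libraries by their fit (0.361), and its RNA had come from another frozen piece of that animal's fat. No marker listed was at 0 in all 10 libraries. In bulk tissue, more cells of a type and more RNA per cell cannot be told apart.

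**Figure D1:**
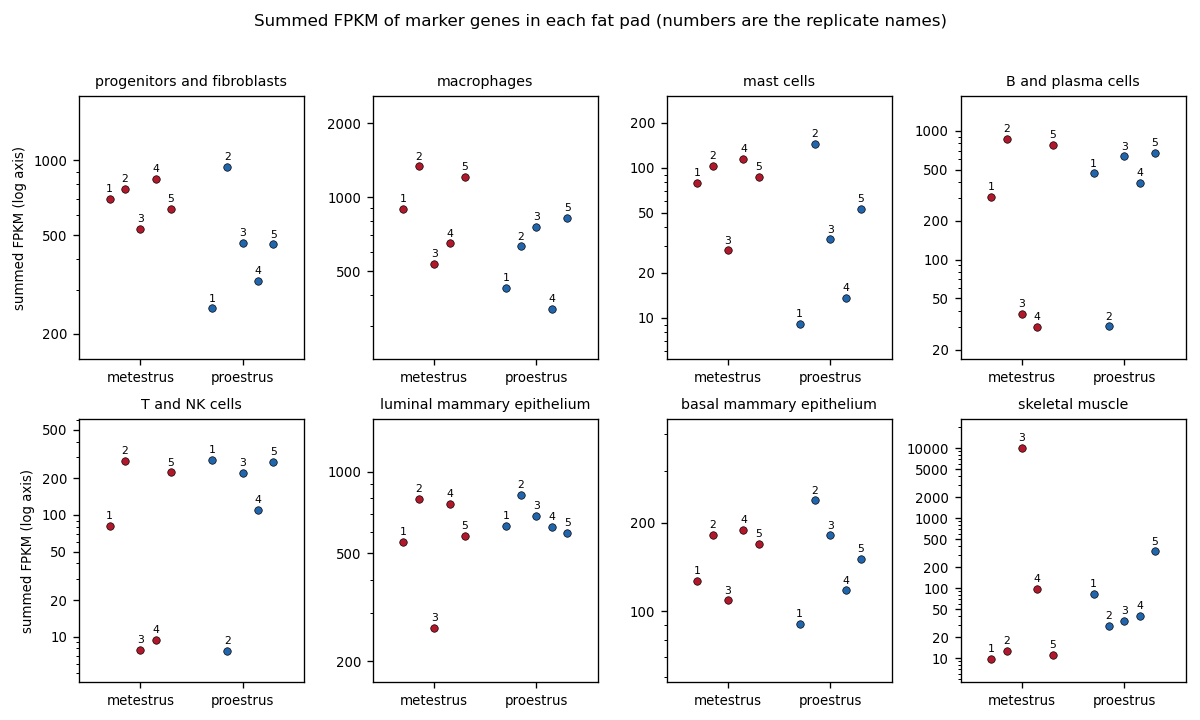
Summed FPKM of marker genes of 8 cell types in each fat pad, on log axes, with metestrus left of proestrus and each point labelled with its replicate number. Metestrus-3 stands alone in skeletal muscle at 10167 FPKM, metestrus-3, metestrus-4 and proestrus-2 are low in B and plasma cells (29.9 to 37.7 FPKM), and proestrus-2 is the highest of the proestrus pads for progenitors and fibroblasts at 942 FPKM.

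Of the 13987 genes tested, 123 were called by limma, 83 of which rose at metestrus (0.593%) and 40 of which fell (0.286%). These shares are the background for the counts of called members in every list below. An unadjusted p under 0.05 from limma was reached by 1475 of the 13987 genes, 1352 of them without passing the adjustment. That share over all genes is the background for every count of list members at an unadjusted p under 0.05 below. The libraries of the stages did not overlap for 351 genes (2.51%), 101 of them called. Genes named for the size of their change were taken only from called genes without overlap. For them the lack of overlap was fixed by that choice and is given as a description. The median difference was 1.02 among the genes that rose, -1.10 among those that fell and -0.01 over all genes tested. A difference of 1 or more was reached by 42 of the rises, and one of -1 or less by 23 of the falls. The count of calls depended on single libraries. It was 327 when proestrus-2 was left out, 91 when metestrus-3 was and 292 when both were. It dropped to 53 on leaving out metestrus-4 or proestrus-3, to 58 for proestrus-4, to 64 for metestrus-5 and to 74 for proestrus-5. Of the 123 genes, 27 that rose and 21 that fell were called in all 20 fits that each left out 1 library. Fits that left out an estrus or diestrus library kept both compared means and changed only the shared estimate of the spread. They gave 101 to 164 calls, against 53 to 327 in the others, so they test the difference less.

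Glucocorticoid-responsive genes were among the rises. Of 20 such genes 11 rose, 1 fell and 8 were not called, beside 0.593% that rose and 0.286% that fell over all genes. The median difference was 1.06, beside -0.01 over all genes. This list was drawn up with earlier results of these data known, so its counts give no support of their own. Fkbp5, which encodes a co-chaperone that restrains the glucocorticoid receptor (chromosome 17, 28399094 to 28517527 of GRCm38), was at 28.03, 17.6, 17.6, 40.4 and 33.8 FPKM in the 5 metestrus pads, against 7.38, 3.52, 2.92, 2.34 and 7.91 FPKM in the 5 proestrus pads. The lowest metestrus pad thus lay above the highest proestrus pad, and the difference was 2.33 (standard error 0.33, adjusted p = 0.00135). Tsc22d3 encodes a leucine zipper protein that glucocorticoids induce, known as GILZ, (chromosome X, 140539528 to 140600659) and had 66.6, 65.02, 65.5, 83.1 and 74.7 FPKM at metestrus and 30.3, 13.9, 16.3, 12.5 and 23.8 FPKM at proestrus (log2 difference 1.89, standard error 0.30, adjusted p = 0.00282). Again no metestrus pad came down to the level of a proestrus pad.
The metallothioneins, small proteins that bind zinc and copper, lie side by side on chromosome 8. Mt2 (chromosome 8, 94172664 to 94173568) was at 84.2, 57.04, 55.2, 88.1 and 68.6 FPKM at metestrus and 22.3, 16.5, 14.3, 13.8 and 22.4 FPKM at proestrus (log2 difference 1.93, standard error 0.40, adjusted p = 0.0231). Whether reads of these related genes were split between them was not checked. Mt1, at 64.9 ± 14.3 FPKM at metestrus and 23.7 ± 6.45 FPKM at proestrus (SD, n = 5), differed by 1.42 (adjusted p = 0.00814 from limma). Both genes were thus higher in every metestrus pad than in any proestrus pad. Ddit4, an inhibitor of the growth kinase complex mTORC1 (chromosome 10, 59949669 to 59951834), had 82.5, 109, 91.3, 121 and 128 FPKM at metestrus and 60.7, 17.5, 26.1, 22.6 and 35.9 FPKM at proestrus (log2 difference 1.79, standard error 0.36, adjusted p = 0.0216), and proestrus-1 was the highest of the proestrus pads.
The others that rose were Cdkn1a, the cell cycle inhibitor p21 (1.41, adjusted p = 0.0183), Errfi1, a feedback inhibitor of the EGF receptor (1.31, adjusted p = 0.0317), Cebpd, a transcription factor of early fat cell differentiation (1.07, adjusted p = 0.0111), the transcription factor gene Klf9 (0.96, adjusted p = 0.0224), Sgk1, a kinase that regulates ion transport (0.92, adjusted p = 0.0437) and Pdk4. Rasd1, which encodes a small G protein that dexamethasone induces, went the other way, with 19.8, 12.5, 18.4, 23.1 and 17.4 FPKM at metestrus and 35.2, 78.6, 55.4, 64.6 and 64.6 FPKM at proestrus (log2 difference -1.63, standard error 0.25, adjusted p = 0.00242). It had no overlap between the stages either. Zbtb16, a zinc finger gene induced by both glucocorticoids and progestins, differed by 1.74 and was not called (adjusted p = 0.0957), nor were the phosphatase gene Dusp1 (1.05, 0.13), Nfkbia (0.78, 0.12) and the clock gene Per1 (0.55, 0.301). Without proestrus-2 the list had 12 rises, without both 11, and without metestrus-1, metestrus-3 or proestrus-5 it had 7. It had 4 rises without metestrus-4, metestrus-5, proestrus-3 or proestrus-4. Leaving low values unfiltered gave 6 rises, and each of these fits had 1 fall. The calls of Fkbp5, Tsc22d3, Mt1, Cebpd and Rasd1 held in all 20 fits that each left out 1 library. Those of Mt2, Ddit4, Cdkn1a, Errfi1, Klf9 and Sgk1 ended in 5, 4, 5, 7, 6 and 13 of them, with the highest adjusted p at 0.0785, 0.072, 0.0649, 0.108, 0.0789 and 0.141. Calls also ended with no filter on low values for Mt2, Ddit4, Errfi1 and Sgk1 (0.051 to 0.0931), with totals made equal for Sgk1 (0.0558), with a muscle covariate for Sgk1 (0.0583), on the 10 libraries alone for Sgk1 (0.105), without proestrus-2 and metestrus-3 for Sgk1 (0.0907), with a pseudocount of 0.1 for Sgk1 (0.0505) and without the mitochondrial genes for Sgk1 (0.0564).

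**Figure D2:**
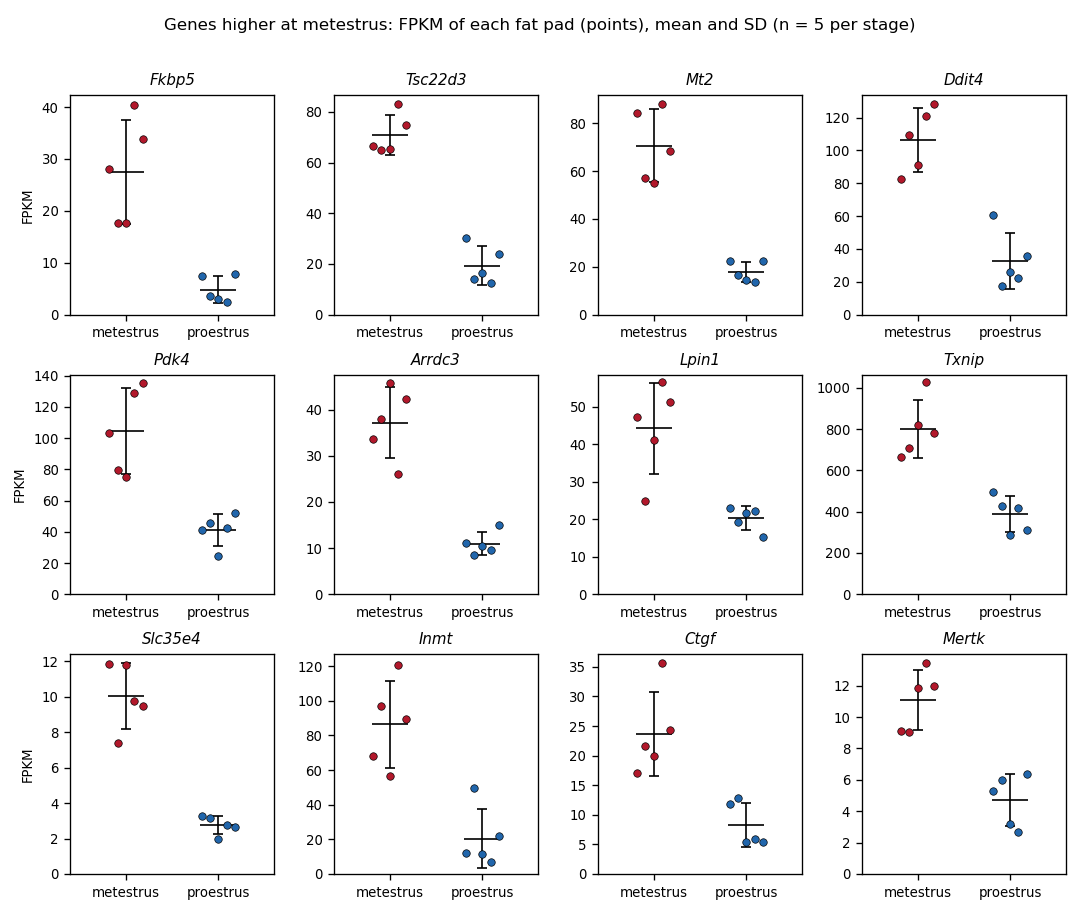
FPKM of 12 genes in each fat pad (points), with the mean as a bar and the SD as whiskers (n = 5 per stage), metestrus left of proestrus, each panel on its own linear axis from 0. In all 12 panels every metestrus pad lies above every proestrus pad. Genes named for the size of their change were picked for this lack of overlap. For Fkbp5 the ranges are 17.6 to 40.4 FPKM at metestrus and 2.34 to 7.91 FPKM at proestrus.

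Promoters of the called genes were searched, on both strands, for the receptor core AGAACA. The second motif was a pair of cores, which starts with AGNACA, has any 3 bases next and ends with the inverted copy TGTNCT. The E-box, a site of clock and other helix-loop-helix factors, was searched as CACGTG. Another was the cAMP response element, TGACGTCA. The last, the estrogen pair, was the estrogen receptor core GGTCA, any 3 bases and the inverted copy TGACC. A pair of AGNACA cores also holds single cores where its letters are AGAACA. RefSeq windows, 250 bases before to 50 after each start, were at hand for 63 of the genes that rose (91 windows) and 28 of those that fell (34 windows). These motifs were chosen after the data were seen. The core was in 16.5% of the windows of genes that rose and 23.5% of those of genes that fell, beside 12.7% of the 12398 windows of tested genes and 19.0% of all 32851 windows. The share for the rises thus lay between these backgrounds. The pair was in 1 window of the genes that rose, at Sgk1, in 0 of those that fell, in 2 windows of tested genes and in 21 of all windows (0.0639%). The E-box was in 8.79% of the windows of rises and 17.6% of those of falls, beside 9.80% for tested genes and 7.15% for all. The cAMP element was in 4.40% and 2.94%, beside 2.86% and 1.79%. The estrogen pair was in 0 windows of rises and 0 of falls, in 1 window of tested genes and in 23 of all windows (0.07%). A match is a description of the letters and no evidence of binding. The 250 bases before the start are printed for a gene with the pair, one with a single core, one with the cAMP element and one with the E-box, read along the gene's strand in GRCm38.p6, with the match in capitals:
Sgk1, chr10:21993640-21993889, plus strand: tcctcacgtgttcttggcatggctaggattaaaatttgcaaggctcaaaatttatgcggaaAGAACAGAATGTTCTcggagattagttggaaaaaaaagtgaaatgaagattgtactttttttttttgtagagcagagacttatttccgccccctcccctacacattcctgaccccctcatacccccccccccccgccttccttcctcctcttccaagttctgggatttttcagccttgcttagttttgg
Tsc22d3, chrX:140600523-140600772, minus strand: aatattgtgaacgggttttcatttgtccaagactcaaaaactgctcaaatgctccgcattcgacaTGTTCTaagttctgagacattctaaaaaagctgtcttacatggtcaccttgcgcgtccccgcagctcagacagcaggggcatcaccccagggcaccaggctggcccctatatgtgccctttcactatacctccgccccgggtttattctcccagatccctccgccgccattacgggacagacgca
Errfi1, chr4:150854820-150855069, plus strand: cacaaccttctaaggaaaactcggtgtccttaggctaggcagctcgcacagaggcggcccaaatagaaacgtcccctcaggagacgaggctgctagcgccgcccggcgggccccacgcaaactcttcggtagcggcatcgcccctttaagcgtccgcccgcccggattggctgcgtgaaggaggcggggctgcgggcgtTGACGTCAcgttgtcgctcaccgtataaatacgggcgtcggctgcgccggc
Oxtr, chr6:112489826-112490075, minus strand: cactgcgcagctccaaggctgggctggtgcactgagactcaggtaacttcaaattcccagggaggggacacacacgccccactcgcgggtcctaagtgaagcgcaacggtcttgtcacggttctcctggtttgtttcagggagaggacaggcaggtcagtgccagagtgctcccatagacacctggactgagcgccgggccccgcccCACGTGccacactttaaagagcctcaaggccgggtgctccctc
The match of Sgk1 begins 189 bases before the start, that of Tsc22d3 185, that of Errfi1 51 and that of Oxtr, whose gene fell, 43. No window of Fkbp5 held the pair, and its window held an E-box.

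Some genes of the fasted state also rose, of which Pdk4 was already counted among the glucocorticoid-responsive rises. Pdk4, a kinase that shuts off pyruvate dehydrogenase and so spares glucose (chromosome 6, 5483351 to 5496309), was at 103, 79.4, 75.3, 129 and 135 FPKM at metestrus and 40.9, 45.7, 24.7, 42.2 and 52.1 FPKM at proestrus (log2 difference 1.32, standard error 0.30, adjusted p = 0.0437). The stages did not overlap, and Pdk4 was the only one called of 20 genes of glucose, pyruvate and glycogen, whose median was -0.08. Of 18 FoxO targets and insulin-restrained genes 5 rose and 0 fell, beside 0.593% that rose and 0.286% that fell over all genes. The median of this list was 0.41, and 3 of its genes rose without metestrus-3. It too was drawn up with earlier results of these data known. Arrdc3, an alpha-arrestin that takes part in the turnover of membrane receptors (chromosome 13, 80883384 to 80896042), had 33.7, 37.98, 45.7, 26.03 and 42.2 FPKM at metestrus and 11.1, 8.57, 10.4, 9.65 and 15.04 FPKM at proestrus (log2 difference 1.67, standard error 0.27, adjusted p = 0.00356). Txnip, an alpha-arrestin that limits glucose uptake, was among the most abundant genes that rose, at 802 ± 139.7 FPKM at metestrus and 388 ± 85.7 FPKM at proestrus (SD, n = 5; 1.06, adjusted p = 0.0176 from limma). The third alpha-arrestin called was Arrdc2 (1.04, adjusted p = 0.0176), and no metestrus pad had less Arrdc3 or Txnip than any proestrus pad. Klf15, a transcription factor of amino acid use and gluconeogenesis, differed by 0.98, adjusted p = 0.0379, and Foxo3, a FoxO factor itself, by 0.59, adjusted p = 0.0418. Foxo1 was not called (0.62, adjusted p = 0.0759), nor was Irs2 (0.41, 0.656).
Ppara, the nuclear receptor that drives fatty acid oxidation, rose to 6.198 ± 1.96 FPKM at metestrus, against 2.56 ± 0.805 FPKM at proestrus (SD, n = 5; 0.99, adjusted p = 0.0391 from limma), and was the only one of 16 genes of that list called (median 0.15). The call of Arrdc3 held in all 20 fits that each left out 1 library. Those of Txnip, Arrdc2, Pdk4, Klf15, Foxo3 and Ppara ended in 3, 3, 12, 8, 12 and 7 of them, with the highest adjusted p at 0.072, 0.062, 0.141, 0.128, 0.139 and 0.121. Under other settings calls ended on the 10 libraries alone for Arrdc2, Klf15, Foxo3 and Ppara (0.117 to 0.146), with median-ratio size factors for Pdk4 and Klf15 (0.059 to 0.0648), with a muscle covariate for Pdk4, Foxo3 and Ppara (0.0511 to 0.0558), with no filter on low values for Pdk4, Klf15, Foxo3 and Ppara (0.0783 to 0.0975), with a pseudocount of 0.1 for Pdk4 and Ppara (0.0511 to 0.0519), without proestrus-2 and metestrus-3 for Klf15 (0.0646), with totals made equal for Foxo3 (0.114) and without the mitochondrial genes for Foxo3 (0.11).

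Lipid genes divided between rises and falls. Angptl8, which feeding induces and which blocks lipoprotein lipase (chromosome 9, 21835510 to 21837347), was at 3.49, 4.44, 1.94, 3.501 and 2.603 FPKM at metestrus and 11.3, 12.8, 18.2, 17.1 and 10.6 FPKM at proestrus (log2 difference -1.84, standard error 0.32, adjusted p = 0.00688). The 5 metestrus pads all lay below the 5 proestrus pads, and none of the other 18 genes of lipoprotein lipase, lipolysis and lipid droplets was called (median of the list 0.06; 2 members at an unadjusted p under 0.05, Angptl8 included). Lpl itself was at 566 ± 148 FPKM at metestrus and 529 ± 116 FPKM at proestrus (SD, n = 5; 0.08, adjusted p = 0.979 from limma). Among the 22 members of the list for making fatty acids and triglycerides, 2 rose and 0 fell, although 19 had negative differences and the median was -0.47. The 2 were Lpin1, a phosphatidate phosphatase that also acts as a co-activator of Ppara, at 47.3, 24.9, 41.1, 56.5 and 51.4 FPKM at metestrus and 22.9, 19.3, 21.8, 22.2 and 15.2 FPKM at proestrus (log2 difference 1.05, standard error 0.19, adjusted p = 0.0088), and the desaturase gene Fads1 (0.52, adjusted p = 0.0231). Lpin1 did not overlap between the stages, and metestrus-2 was the lowest of the metestrus pads. The lipogenic members had wide spreads. Srebf1, the transcription factor of the pathway, was at 25.1, 23.2, 27.4, 22.4 and 18.6 FPKM at metestrus and 35.9, 45.1, 53.1, 57.1 and 23.7 FPKM at proestrus (log2 difference -0.80, standard error 0.19, adjusted p = 0.0507), with proestrus-5 inside the metestrus range. Elovl6 had a difference of -1.35 (adjusted p = 0.214), Fasn one of -0.79 (0.421) and Scd2 one of -1.38 (0.477).
Of 23 genes of cholesterol synthesis and uptake 1, Msmo1, fell (-0.70, adjusted p = 0.0437) and 0 rose. All 23 had negative differences, with a median of -0.39, and 10 had an unadjusted p under 0.05. Idh1, the cytosolic isocitrate dehydrogenase that makes NADPH for lipid synthesis, was chosen after its values were seen. It had 96.04, 91.5, 90.98, 89.2 and 70.9 FPKM at metestrus and 119.6, 159, 157, 154 and 154 FPKM at proestrus (log2 difference -0.75, standard error 0.12, adjusted p = 0.00267), which places every metestrus pad below every proestrus pad. Others chosen in this way were Lpin3, a second lipin (0.86, adjusted p = 0.0165), Gdpd1, a lysophospholipase D (1.02, adjusted p = 0.00265), and Acer2, an alkaline ceramidase (0.88, adjusted p = 0.0182), which all rose. The calls of Angptl8, Lpin1, Idh1 and Gdpd1 held in all 20 fits that each left out 1 library. Those of Fads1, Msmo1, Lpin3 and Acer2 ended in 6, 12, 3 and 4 of them, with the highest adjusted p at 0.0767, 0.144, 0.0625 and 0.0724. Further calls were lost on the 10 libraries alone for Lpin1, Fads1, Msmo1, Lpin3 and Acer2 (0.0641 to 0.153), with median-ratio size factors for Fads1 and Msmo1 (0.0837 to 0.0907), without the mitochondrial genes for Fads1 and Msmo1 (0.0582 to 0.0582), with totals made equal for Msmo1 (0.0712), with a muscle covariate for Msmo1 (0.0564), with no filter on low values for Msmo1 (0.088) and without proestrus-2 and metestrus-3 for Msmo1 (0.0811).

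**Figure D3:**
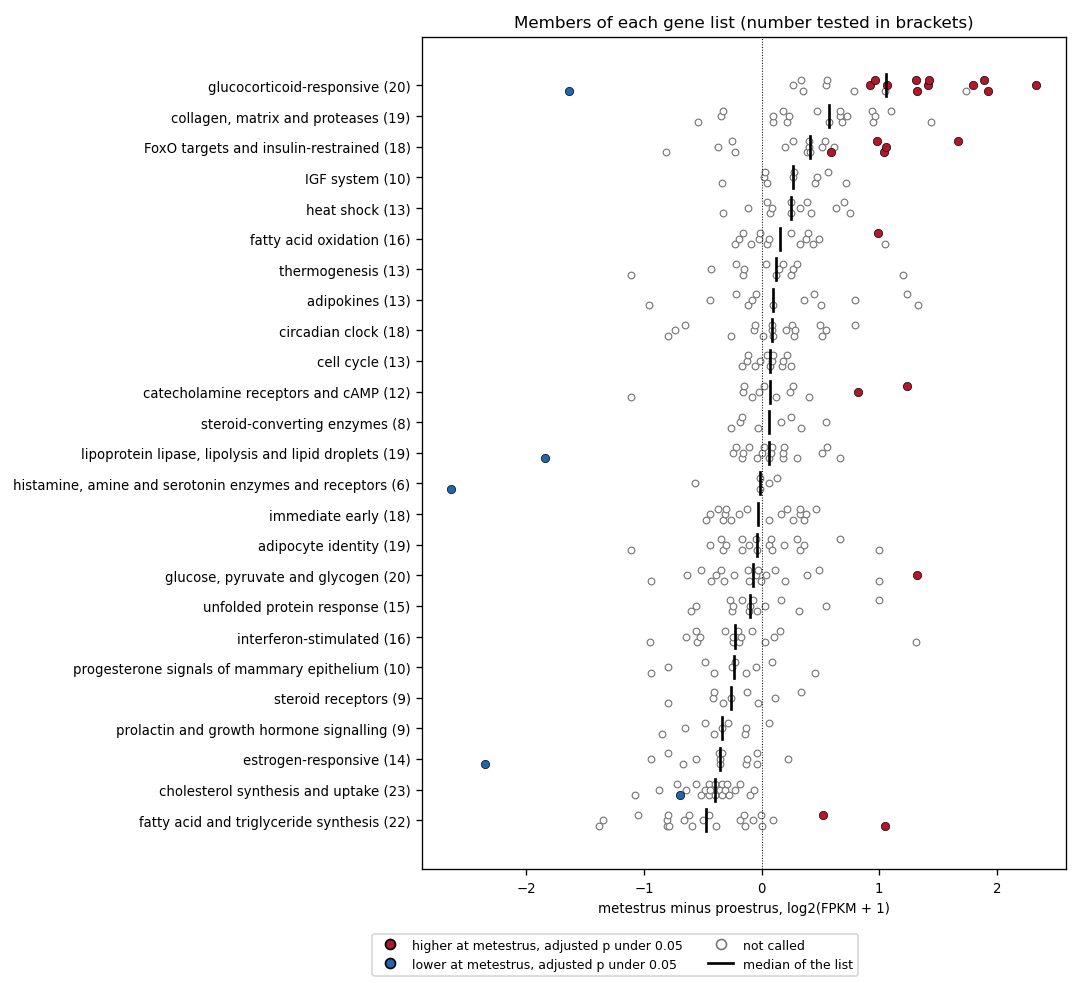
Difference metestrus minus proestrus on log2(FPKM + 1) for each tested member of 25 gene lists, sorted by the median of the list (vertical bar), with called members filled. The glucocorticoid-responsive list has the highest median at 1.06 with 11 members up and 1 down, and the list of fatty acid and triglyceride synthesis the lowest at -0.47, with 2 members up. The lists were drawn up with earlier results of these data known.

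Several genes that rose act in the conjugation or oxidation of small molecules. They were picked from the called genes after their values were seen and stand for no list. Inmt, an N-methyltransferase of indoles and other amines (chromosome 6, 55170626 to 55175043), was at 68.1, 97.05, 56.6, 121 and 89.6 FPKM at metestrus and 12.3, 49.4, 11.2, 6.94 and 21.7 FPKM at proestrus (log2 difference 2.30, standard error 0.47, adjusted p = 0.0222). The stages did not overlap, and proestrus-2 was the highest of the proestrus pads. Slc10a6, a carrier of steroid sulfates (chromosome 5, 103605711 to 103629403), was at 5.17, 7.17, 6.62, 6.83 and 6.37 FPKM at metestrus and 2.85, 2.72, 1.82, 1.55 and 2.99 FPKM at proestrus (log2 difference 1.15, standard error 0.18, adjusted p = 0.00242). Every metestrus pad had more than any proestrus pad. Papss2, which makes the sulfate donor of all sulfotransferases, rose by 1.09 (adjusted p = 0.0234), and Sult1a1, a sulfotransferase of phenols, by 0.79 (adjusted p = 0.0397). The flavin monooxygenase genes Fmo2 (1.52, adjusted p = 0.0102) and Fmo1 (0.55, adjusted p = 0.0474), 7706 bases apart on chromosome 1, and the paraoxonase gene Pon1 (1.33, adjusted p = 0.0418) were higher too. The selenium carrier gene Selenop was at 593 ± 57.3 FPKM at metestrus and 379.7 ± 68.9 FPKM at proestrus (SD, n = 5; 0.65, adjusted p = 0.042 from limma). The calls of Slc10a6 and Fmo2 held in all 20 fits that each left out 1 library. Those of Inmt, Papss2, Sult1a1, Fmo1, Pon1 and Selenop ended in 4, 5, 11, 16, 12 and 13 of them, with the highest adjusted p at 0.0768, 0.0802, 0.128, 0.152, 0.141 and 0.144. Among the other settings, calls ended on the 10 libraries alone for Fmo2, Inmt, Sult1a1, Fmo1 and Selenop (0.0505 to 0.0983), with no filter on low values for Inmt, Papss2, Sult1a1, Fmo1, Pon1 and Selenop (0.0532 to 0.0971), with median-ratio size factors for Sult1a1, Fmo1 and Pon1 (0.0506 to 0.0888), without the mitochondrial genes for Sult1a1 and Selenop (0.0582 to 0.0708), with no variance trend for Fmo1 (0.0529), without proestrus-2 and metestrus-3 for Fmo1 (0.051), with a pseudocount of 0.1 for Fmo1 and Pon1 (0.0519 to 0.0563), with totals made equal for Selenop (0.0604) and with a muscle covariate for Selenop (0.0512).

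Stromal and matrix genes rose in part. Ctgf, a matricellular protein also named Ccn2 (chromosome 10, 24595442 to 24598683), was at 17.1, 21.6, 19.97, 35.6 and 24.3 FPKM at metestrus and 11.8, 12.8, 5.41, 5.84 and 5.46 FPKM at proestrus (log2 difference 1.46, standard error 0.26, adjusted p = 0.00724). Tgfbi, a matrix protein induced by TGF-beta and chosen after its values were seen, was at 28.7 ± 4.21 FPKM at metestrus and 15.3 ± 3.17 FPKM at proestrus (SD, n = 5; 0.87, adjusted p = 0.0126 from limma). Neither gene overlapped between the stages. The dipeptidase gene Dpep1 was at 62.5, 47.7, 48.2, 82.2 and 61.7 FPKM at metestrus and 8.31, 39.7, 15.6, 12.6 and 12.4 FPKM at proestrus (log2 difference 1.89, standard error 0.37, adjusted p = 0.0164), and Pamr1, a secreted protein with a peptidase domain, at 7.25, 9.51, 5.69, 9.92 and 7.24 FPKM at metestrus and 1.503, 5.34, 1.29, 0.777 and 1.41 FPKM at proestrus (log2 difference 1.68, standard error 0.36, adjusted p = 0.0286). In both, proestrus-2 was far above the other proestrus pads and came close to the metestrus range. Thbs2, a thrombospondin (1.36, adjusted p = 0.0457), Itih2, which links hyaluronan in the matrix (1.42, adjusted p = 0.00993), and the protease gene Adamts15 (0.94, adjusted p = 0.016, chosen after its values were seen) rose too. Of 19 collagens, matrix proteins and proteases, however, 0 were called by limma, with 7 at an unadjusted p under 0.05, all of them higher, and a median of 0.58. Mmp2, a gelatinase, was at 56.2, 53.6, 41.4, 57.8 and 47.8 FPKM at metestrus and 6.37, 62.6, 19.3, 13.7 and 17.3 FPKM at proestrus. Proestrus-2 alone was above all metestrus pads, and the difference of 1.44 (adjusted p = 0.13) was called when proestrus-2 was left out (adjusted p = 0.00822), as was that of Timp3, an inhibitor of such proteases (0.96, adjusted p = 0.0883; 0.0265 without proestrus-2).
The 11 markers of progenitors and fibroblasts, cells that make much of the matrix, are given beside these genes. Their sum was 698, 768, 528, 843 and 638 FPKM in the metestrus pads, against 253, 942, 464, 326 and 458 FPKM in the proestrus pads, so that proestrus-2 was the highest of all 10 and the other proestrus pads were the lowest 4. By limma 0 of the 11 were called (6 at an unadjusted p under 0.05; median 0.62), and 4 rose without proestrus-2. The part of these cells in the rises was not tested. The calls of Ctgf, Tgfbi and Itih2 held in all 20 fits that each left out 1 library. That of Dpep1 ended without metestrus-4 or proestrus-4 (adjusted p up to 0.062). Those of Pamr1, Thbs2 and Adamts15 ended in 8, 14 and 3 of them, with the highest adjusted p at 0.102, 0.151 and 0.062. Some calls ended too on the 10 libraries alone for Itih2, Thbs2 and Adamts15 (0.0525 to 0.0696), with no filter on low values for Pamr1 and Thbs2 (0.0697 to 0.104), with totals made equal for Thbs2 (0.0687), with a muscle covariate for Thbs2 (0.0602), with a pseudocount of 0.1 for Thbs2 (0.0529) and without the mitochondrial genes for Thbs2 (0.0773).

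Some genes known from macrophages rose too. Ms4a4a, which encodes a membrane protein of macrophages (chromosome 19, 11375523 to 11392790), was at 8.78, 11.5, 10.6, 16.6 and 11.7 FPKM at metestrus and 2.41, 5.85, 3.06, 1.09 and 4.06 FPKM at proestrus (log2 difference 1.66, standard error 0.30, adjusted p = 0.009). Mertk, a receptor with which macrophages take up dying cells (chromosome 2, 128698956 to 128802894), was at 9.11, 9.05, 11.8, 13.5 and 11.98 FPKM at metestrus and 5.31, 6.01, 3.18, 2.68 and 6.35 FPKM at proestrus (log2 difference 1.12, standard error 0.21, adjusted p = 0.0126). The stages overlapped for neither gene. Gas6, whose product is a ligand of Mertk, went the other way, with 51.5, 67.7, 57.3, 64.1 and 60.8 FPKM at metestrus and 89.5, 162, 207, 106 and 276 FPKM at proestrus (log2 difference -1.35, standard error 0.29, adjusted p = 0.0299), also without overlap. Tlr7, a sensor of single-stranded RNA, rose by 1.31 (adjusted p = 0.0269), and Ifngr1, a chain of the interferon gamma receptor, by 0.74 (adjusted p = 0.00356). Mertk, Tlr7 and Ifngr1 were chosen after their values were seen. Of 11 macrophage markers 0 were called by limma, 7 had an unadjusted p under 0.05, all 11 had positive differences and the median was 0.84. The 12 markers summed to 898, 1334, 536, 648 and 1210 FPKM in the metestrus pads and 427, 630, 755, 352 and 825 FPKM in the proestrus pads, which overlap. Cd163, a scavenger receptor of tissue macrophages, had the largest difference among them (1.82, adjusted p = 0.0722), and 3 markers rose without proestrus-2. Of 6 mast cell markers 0 were called by limma, with 2 at an unadjusted p under 0.05, both higher at metestrus. Their median was 1.27, and 1.79 without proestrus-2, where 0 rose. Without proestrus-2 and metestrus-3 it was 2.11, and 2 rose. The 7 listed summed to 28.1 to 115 FPKM at metestrus and 9.12 to 145 FPKM at proestrus. Proestrus-2 was the highest, and the other proestrus pads reached up to 53.2 FPKM. Of 16 interferon-stimulated genes 0 were called, with 4 at an unadjusted p under 0.05 and a median of -0.22. The part of macrophages in these rises was not tested. The calls of Ms4a4a and Ifngr1 held in all 20 fits that each left out 1 library. That of Mertk ended without metestrus-4 or proestrus-3 (adjusted p up to 0.0528). Those of Gas6 and Tlr7 ended in 6 and 6 of them, with the highest adjusted p at 0.0982 and 0.0874. Calls also ended on the 10 libraries alone for Mertk and Gas6 (0.0517 to 0.0696), with totals made equal for Gas6 (0.0537), with no filter on low values for Gas6 and Tlr7 (0.0614 to 0.07) and without proestrus-2 and metestrus-3 for Gas6 (0.0583).

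Some receptors and signalling genes changed, most of them at low levels. Mc5r, a melanocortin receptor, was at 3.25, 2.48, 3.11, 3.403 and 3.67 FPKM at metestrus and 1.37, 0.899, 0.554, 0.695 and 0.875 FPKM at proestrus (log2 difference 1.16, standard error 0.16, adjusted p = 0.000657). All metestrus pads were above all proestrus pads. Of 12 catecholamine receptors and cAMP genes 2 rose and 0 fell, with a median of 0.07. Among them was Pde4d, which degrades cAMP (0.82, adjusted p = 0.00814). Adrb3, the beta-3 receptor of fat cells, was not called, at 18.6, 20.2, 55.4, 19.1 and 16.5 FPKM at metestrus and 53.4, 81.5, 36.6, 63.8 and 33.8 FPKM at proestrus (-1.11, adjusted p = 0.224), and metestrus-3 stood apart from the other metestrus pads. Dusp18, a dual-specificity phosphatase gene, and Slc35e4, related to carriers of nucleotide sugars, lie 5724 bases apart on chromosome 11 and had the smallest adjusted p of the genes named beside them here. Slc35e4 (chromosome 11, 3907021 to 3914664) was at 11.8, 7.37, 11.8, 9.76 and 9.51 FPKM at metestrus and 3.25, 3.15, 1.96, 2.77 and 2.64 FPKM at proestrus (log2 difference 1.55, standard error 0.16, adjusted p = 3.57e-05), and Dusp18 at 8.902, 5.43, 8.29, 10.7 and 8.51 FPKM at metestrus and 3.604, 3.86, 2.897, 3.08 and 3.28 FPKM at proestrus (log2 difference 1.09, standard error 0.12, adjusted p = 9.18e-05). Neither gene overlapped between the stages. Fam107a, an actin-binding protein gene, was at 4.902, 2.98, 5.504, 7.45 and 6.61 FPKM at metestrus and 0.893, 0.8303, 0.363, 0.284 and 1.102 FPKM at proestrus (log2 difference 1.92, standard error 0.22, adjusted p = 0.000166), again without overlap. Hif1a, the hypoxia-inducible factor, fell (-0.60, adjusted p = 0.042), and Egln2, one of the hydroxylases that mark it for degradation, rose (0.40, adjusted p = 0.0286). Mc5r, Dusp18, Hif1a and Egln2 were chosen after their values were seen. The calls of Mc5r, Pde4d, Slc35e4, Dusp18 and Fam107a held in all 20 fits that each left out 1 library. Those of Hif1a and Egln2 ended in 13 and 6 of them, with the highest adjusted p at 0.113 and 0.105. Under other settings calls ended on the 10 libraries alone for Pde4d, Hif1a and Egln2 (0.0525 to 0.13), with totals made equal for Hif1a (0.154), with a muscle covariate for Hif1a (0.0535), with no filter on low values for Hif1a (0.0785), without proestrus-2 and metestrus-3 for Hif1a (0.0892), without the mitochondrial genes for Hif1a (0.059) and with median-ratio size factors for Egln2 (0.0888).

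Among the genes that fell, several are best known from epithelia. Oxtr, the oxytocin receptor, which in the mammary gland lets myoepithelial cells contract and which estrogen induces in the uterus (chromosome 6, 112473683 to 112489943), was at 8.36, 14.2, 10.01, 12.9 and 8.79 FPKM at metestrus and 41.1, 63.4, 89.98, 50.3 and 57.4 FPKM at proestrus (log2 difference -2.35, standard error 0.31, adjusted p = 0.000521). Every metestrus pad lay below every proestrus pad by a wide margin. Aoc1, the diamine oxidase that degrades histamine and putrescine (chromosome 6, 48872896 to 48909188), had the largest difference of the genes named, with 0.148, 0.305, 0.0844, 0.225 and 0.0817 FPKM at metestrus and 4.36, 6.95, 9.65, 3.69 and 8.37 FPKM at proestrus (log2 difference -2.64, standard error 0.26, adjusted p = 3.57e-05). It was close to 0 in each metestrus pad and was the only one called of 6 histamine, amine and serotonin genes (median -0.02). Cxcl15, a chemokine known from lung epithelium (chromosome 5, 90794534 to 90803067), was at 6.63, 7.7, 7.52, 12.03 and 5.05 FPKM at metestrus and 42.5, 32.8, 35.8, 41.1 and 38.7 FPKM at proestrus (log2 difference -2.20, standard error 0.29, adjusted p = 0.000521). Slc5a5, the sodium iodide symporter of the thyroid and the lactating mammary gland, was at 3.47, 5.28, 2.32, 5.96 and 5.23 FPKM at metestrus and 15.8, 37.9, 12.8, 15.6 and 16.4 FPKM at proestrus (log2 difference -1.87, standard error 0.28, adjusted p = 0.00197). Both genes separated the stages, and proestrus-2 was the highest pad for Slc5a5. Ido1, which starts the breakdown of tryptophan, was at 13.9, 10.8, 4.85, 22.5 and 11.1 FPKM at metestrus and 46, 44.8, 50.6, 40.05 and 43.2 FPKM at proestrus (log2 difference -1.89, standard error 0.33, adjusted p = 0.00724). Sprr1a, a protein of the cornified envelope of keratinocytes, was listed at 0 in metestrus-2 and metestrus-3 and at up to 0.208 FPKM in the other metestrus pads, against 1.56, 2.83, 4.19, 2.05 and 3.26 FPKM at proestrus (log2 difference -1.76, standard error 0.19, adjusted p = 5.1e-05).
Markers of mammary epithelium are given beside these falls. Of 13 luminal markers 0 were called by limma (2 at an unadjusted p under 0.05; median -0.14, and 0.11 without metestrus-3), and their sum was 551, 796, 266, 761 and 582 FPKM at metestrus and 631, 822, 689, 628 and 596 FPKM at proestrus. Of 8 basal markers 1, Oxtr itself, fell, and the median was 0.49. Without proestrus-2 and metestrus-3, 5 basal markers rose and Oxtr still fell. The sum of the basal markers was 109 to 189 FPKM at metestrus and 90.6 to 238 FPKM at proestrus (up to 181 without proestrus-2). That sum includes Oxtr, while the other 7 markers all had positive differences. It thus does not give the level of basal markers apart from Oxtr. Metestrus-3, the pad with muscle, had the lowest luminal sum, and the falls of Oxtr, Aoc1, Cxcl15, Slc5a5, Ido1 and Sprr1a were called without it too. The calls of Oxtr, Aoc1, Cxcl15, Slc5a5, Ido1 and Sprr1a held in all 20 fits that each left out 1 library. Those fits kept the filter set on all 20 libraries and so do not test it. Aoc1 and Sprr1a passed that filter only through proestrus, where they were high, so their calls lend no separate support.

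**Figure D4:**
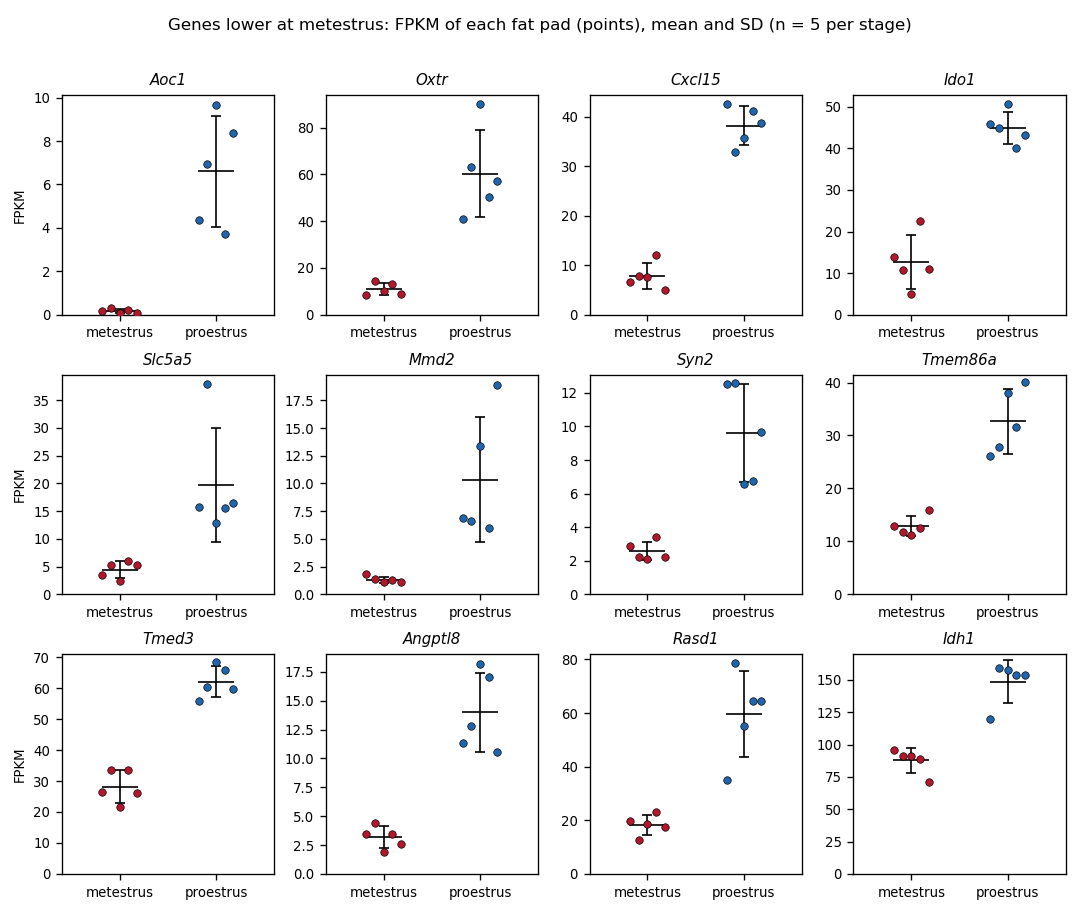
FPKM of 12 genes in each fat pad (points), with the mean as a bar and the SD as whiskers (n = 5 per stage), metestrus left of proestrus, each panel on its own linear axis from 0. In all 12 panels every metestrus pad lies below every proestrus pad. Genes named for the size of their change were picked for this lack of overlap. For Oxtr the ranges are 8.36 to 14.2 FPKM at metestrus and 41.1 to 89.98 FPKM at proestrus.

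Others that fell have varied roles. Tmem86a, an enzyme that cleaves lysoplasmalogens (chromosome 7, 47050601 to 47054777), was at 12.97, 11.7, 11.1, 12.5 and 15.9 FPKM at metestrus and 26.2, 27.7, 37.98, 31.6 and 40.04 FPKM at proestrus (log2 difference -1.27, standard error 0.15, adjusted p = 0.000172). Its neighbour Ptpn5, a tyrosine phosphatase best known from neurons, was at 0.118 ± 0.0867 FPKM at metestrus and 2.11 ± 0.601 FPKM at proestrus (SD, n = 5; -1.46, adjusted p = 3.57e-05 from limma). Tmed3, a cargo receptor of the early secretory pathway (chromosome 9, 89699206 to 89705068), had 26.6, 33.5, 21.5, 33.4 and 26.1 FPKM at metestrus and 55.99, 60.4, 68.5, 65.7 and 59.6 FPKM at proestrus (log2 difference -1.12, standard error 0.16, adjusted p = 0.00109). In all 3 genes the stages were apart. Syn2, a synapsin of synaptic vesicles, was at 2.88, 2.24, 2.11, 3.4 and 2.25 FPKM at metestrus and 12.5, 12.6, 6.58, 6.75 and 9.64 FPKM at proestrus (log2 difference -1.54, standard error 0.24, adjusted p = 0.00264), and Mmd2, a member of the progestin and adiponectin receptor family, at 1.79, 1.35, 1.11, 1.26 and 1.101 FPKM at metestrus and 6.87, 6.62, 13.3, 5.96 and 18.9 FPKM at proestrus (log2 difference -2.17, standard error 0.33, adjusted p = 0.00263). Proestrus-3 and proestrus-5 were the high pads for Mmd2. The dipeptidase gene Dpep2 (-1.26, adjusted p = 0.000521), the phosphatase gene Dusp4 (-1.08, adjusted p = 0.0123), Nabp1, which binds single-stranded DNA (-1.32, adjusted p = 0.0119), the galactosyltransferase gene B3galt2 (-1.02, adjusted p = 0.0446) and the cytochrome P450 gene Cyp3a57 (-1.37, adjusted p = 0.0457) fell as well. Dpep2 overlaps Dus2 on the other strand, which also fell (-0.61, adjusted p = 0.0231), and the sources do not say whether reads were assigned by strand. The calls of Tmem86a, Ptpn5, Tmed3, Syn2, Mmd2, Dpep2, Nabp1 and Dusp4 held in all 20 fits that each left out 1 library. Those of B3galt2 and Cyp3a57 ended in 13 and 16 of them, with the highest adjusted p at 0.149 and 0.117. Ptpn5 and Dpep2, like Aoc1 and Sprr1a, passed the filter on low values only through proestrus, which these fits do not test. Further calls were lost on the 10 libraries alone for Dusp4 and Cyp3a57 (0.0972 to 0.149), with totals made equal for B3galt2 and Cyp3a57 (0.0606 to 0.0798), with median-ratio size factors for B3galt2 (0.0714), with no filter on low values for B3galt2 and Cyp3a57 (0.0971 to 0.104), without the mitochondrial genes for B3galt2 and Cyp3a57 (0.0564 to 0.0582), with a muscle covariate for Cyp3a57 (0.0602), without proestrus-2 and metestrus-3 for Cyp3a57 (0.0761) and with a pseudocount of 0.1 for Cyp3a57 (0.0554).

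Several called genes lay next to each other. Within 50 kb there were 10 pairs of called genes, from 17 of the 123, and in 8 pairs both genes moved the same way, beside 55.7% of the 18365 pairs of tested genes at that distance. They were Fmo1 and Fmo2, the 3 pairs among Dusp18, Slc35e4 and Tcn2, Mt1 and Mt2, Cxcl15 and the predicted gene Gm43085, Tmem86a and Ptpn5, and Dpep2 and Dus2. The 3 pairs of Dusp18, Slc35e4 and Tcn2 share genes and are not independent. The 55.7% includes pairs with differences of any size. How many called genes would have a called neighbour by position alone was not worked out. Gm43085 begins 193 bases after the end of Cxcl15 on the same strand (adjusted p = 0.000873 from limma). Many called genes overlap a gene on the other strand. For example, Syn2 overlaps Timp4, Angptl8 overlaps Dock6, Cebpd overlaps Spidr and Gas6 overlaps Tmem255b. Fkbp5, Txnip, Ctgf, Arrdc3 and Mt2 are also among those with such an overlap. Tcn2, Gm43085 and Dus2 were chosen after their values were seen, and so was the distance of 50 kb. Reads of such neighbours, and of overlapping genes, cannot be told apart where a transcript runs past its annotated end.

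The receptors and converting enzymes of steroids could be tested in part. Esr2, Gper1, Paqr5, Paqr6 and Paqr8 did not pass the filter on low values. Of the other 9 steroid receptors 0 were called by limma, with 3 at an unadjusted p under 0.05, all of them lower at metestrus, and a median of -0.26. Pgr, the progesterone receptor, was at 4.78, 8.04, 4.35, 5.58 and 4.501 FPKM at metestrus and 10.7, 19.2, 6.51, 6.76 and 10.6 FPKM at proestrus (log2 difference -0.80, standard error 0.25, adjusted p = 0.167), with proestrus-2 the highest. Nr3c1, the glucocorticoid receptor, was at 22.5 ± 5.02 FPKM at metestrus and 28.3 ± 4.64 FPKM at proestrus (SD, n = 5; -0.33, adjusted p = 0.361 from limma), and Esr1, the estrogen receptor alpha, at 6.76 ± 0.714 FPKM at metestrus and 5.59 ± 2.53 FPKM at proestrus (0.34, adjusted p = 0.719 from limma, n = 5). Among 16 steroid-converting enzymes 8 passed the filter, and Hsd11b2, Cyp19a1 and Srd5a1 did not. Of those 8, 0 were called by limma, with 2 at an unadjusted p under 0.05 and a median of 0.06. Hsd11b1, which regenerates active glucocorticoid inside cells, was at 16.1 ± 1.95 FPKM at metestrus and 18.9 ± 7.05 FPKM at proestrus (SD, n = 5; -0.16, adjusted p = 0.928 from limma), and H6pd, which supplies its cofactor, differed by 0.55, adjusted p = 0.219. The 14 estrogen-responsive genes had a median of -0.35 with 1 fall, that of Oxtr, and 6 members had an unadjusted p under 0.05, all lower at metestrus. Of 10 progesterone signals of mammary epithelium 0 were called by limma (4 at an unadjusted p under 0.05; median -0.24). Among them Areg, an EGF receptor ligand, was at 32.4, 94.7, 27.8, 54.3 and 35.5 FPKM at metestrus and 106, 74.7, 75.03, 57.8 and 133 FPKM at proestrus and overlapped between the stages (-0.94, adjusted p = 0.123). Cited1, a transcriptional co-regulator that mammary epithelium also expresses, rose to 12.3, 16.4, 5.896, 20.8 and 17.9 FPKM at metestrus, against 4.46, 4.83, 4.81, 4.01 and 2.25 FPKM at proestrus (log2 difference 1.55, standard error 0.27, adjusted p = 0.00688). Its call held in all 20 fits that each left out 1 library and ended on the 10 libraries alone (0.0525).

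Lists of fat cell identity and of general stress also had 0 calls by limma. Of 19 adipocyte identity genes 3 had an unadjusted p under 0.05 (median -0.04). Their sum was 5311 to 9552 FPKM at metestrus and 5963 to 7958 FPKM at proestrus. Pparg, the nuclear receptor of fat cell differentiation, was at 45.3 ± 9.48 FPKM at metestrus and 57.2 ± 5.38 FPKM at proestrus (SD, n = 5; -0.35, adjusted p = 0.547 from limma). Of 13 adipokines 5 had an unadjusted p under 0.05 (median 0.09), and leptin (Lep) was at 56.3, 53.7, 112, 44.4 and 37.96 FPKM at metestrus and 42.4, 149, 78.2, 103 and 52.7 FPKM at proestrus (-0.44, adjusted p = 0.91). Of 18 clock genes 5 (median 0.09), of 13 thermogenesis genes 2 (median 0.12), of 18 immediate early genes 1 (median -0.03) and of 15 genes of the unfolded protein response 4 (median -0.10) had an unadjusted p under 0.05. Of 13 heat shock genes 4 did, all higher at metestrus (median 0.25), the lowest p being that of Hspa8, an abundant chaperone (0.63, adjusted p = 0.066). Of 9 genes of prolactin and growth hormone signalling 3 did, all lower (median -0.34), with Stat5a, which carries the signal of prolactin, at -0.48, adjusted p = 0.0735. Of 10 genes of the IGF system 1 did, the binding protein gene Igfbp3 (0.72, adjusted p = 0.0517, and 0.0454 without proestrus-2; median of the list 0.27), and of 13 cell cycle genes 0 did (median 0.07). Markers of other cells that the pad could hold had 0 calls too, and single pads set many of their medians. The median was -0.70 for B and plasma cells, -0.78 for T and NK cells and -0.63 for lymph node stroma. Without proestrus-2 these were -1.60, -1.46 and -1.45, and without metestrus-3 they were -0.25, -0.33 and -0.07. For skeletal muscle the median was 0.35, and -1.17 without metestrus-3. For pericytes and smooth muscle it was 0.33, for Schwann cells 0.31 and for endothelium 0.24, against 0.11, 0.10 and 0.11 without metestrus-3. Neutrophil markers had a median of 0.16 and erythroid markers one of 0.03. Of these, endothelium had 2, pericytes 4 and Schwann cells 1 member at an unadjusted p under 0.05, and the other 6 lists had 0.

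The levels at estrus and diestrus place each difference within the cycle. These comparisons share the metestrus or the proestrus libraries with the one above and are given as descriptions. The genes that rose or fell were picked for a large gap between metestrus and proestrus. That choice in part fixes how often these stages had their highest or lowest mean. Metestrus had the highest mean of the 4 stages for all 83 genes that rose, beside 3398 of the 6675 tested genes with a positive difference (50.9%), and proestrus had the lowest mean for 53 of the 83 (63.9%, beside 51.8%). Against the mean of estrus and diestrus, 109 genes were higher at metestrus (0.779%) and 38 lower (0.272%), while 12 were higher at proestrus (0.0858%) and 0 lower (0%), with 423 lower and 270 higher at an unadjusted p under 0.05. Of the 83 genes that rose 54 were also called higher at metestrus than at estrus and diestrus, 0 were called lower at proestrus and 29 were called in neither. For Fkbp5 the proestrus pads averaged 4.81 ± 2.62 FPKM, the estrus pads 5.37 ± 2.12, the metestrus pads 27.5 ± 10.1 and the diestrus pads 4.22 ± 2.54 (SD, n = 5). Tsc22d3 (1.66, adjusted p = 0.00392 for metestrus minus the mean of estrus and diestrus), Slc35e4 (1.57, adjusted p = 8.38e-06) and Arrdc3 (1.61, adjusted p = 0.00275) had the same shape, with the 3 other stages close together. Sult1a1 did not, since its estrus mean of 122 FPKM lay between those of metestrus and proestrus. For Mt2 estrus-1 was high at 152.9 FPKM, while the other estrus pads had 17.5 to 26.6 FPKM.
Of the 40 genes that fell, proestrus had the highest mean for 35 (87.5%, beside 41.1% of the tested genes with a negative difference) and metestrus the lowest for 33 (82.5%, beside 60.1%). By the same fits 9 were called higher at proestrus, 12 lower at metestrus and 20 neither, 1 gene, Sprr1a, being called in both. Aoc1 averaged 6.61 ± 2.55 FPKM in proestrus, 0.195 ± 0.209 in estrus, 0.169 ± 0.0959 in metestrus and 1.48 ± 1.12 in diestrus pads, and Mmd2, Ptpn5, Syn2, Tmem86a, Cxcl15, Tmed3 and Dpep2 were likewise called higher at proestrus. Outside proestrus, Aoc1, Sprr1a, Ptpn5 and Dpep2 reached 1 FPKM in fewer than 5 libraries. They thus passed the filter on low values only through the stage where they were high. Idh1 instead had its lowest level at metestrus, with means of 149 ± 16.4 FPKM in proestrus, 130.0 ± 16.01 in estrus, 87.7 ± 9.72 in metestrus and 145 ± 18.99 in diestrus pads (-0.64, adjusted p = 0.00433 for metestrus minus the mean of estrus and diestrus). Oxtr and Angptl8 were high at both proestrus and diestrus, with diestrus means of 41.6 and 25.3 FPKM. Gpx3, a secreted glutathione peroxidase, was called higher at proestrus than at estrus and diestrus (1.53, adjusted p = 0.0231) without being called between metestrus and proestrus, where it was at 441, 810.1, 419, 1003 and 805 FPKM at metestrus and 1019, 1001, 1522, 1313 and 1645 FPKM at proestrus (-0.96, adjusted p = 0.166).

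**Figure D5:**
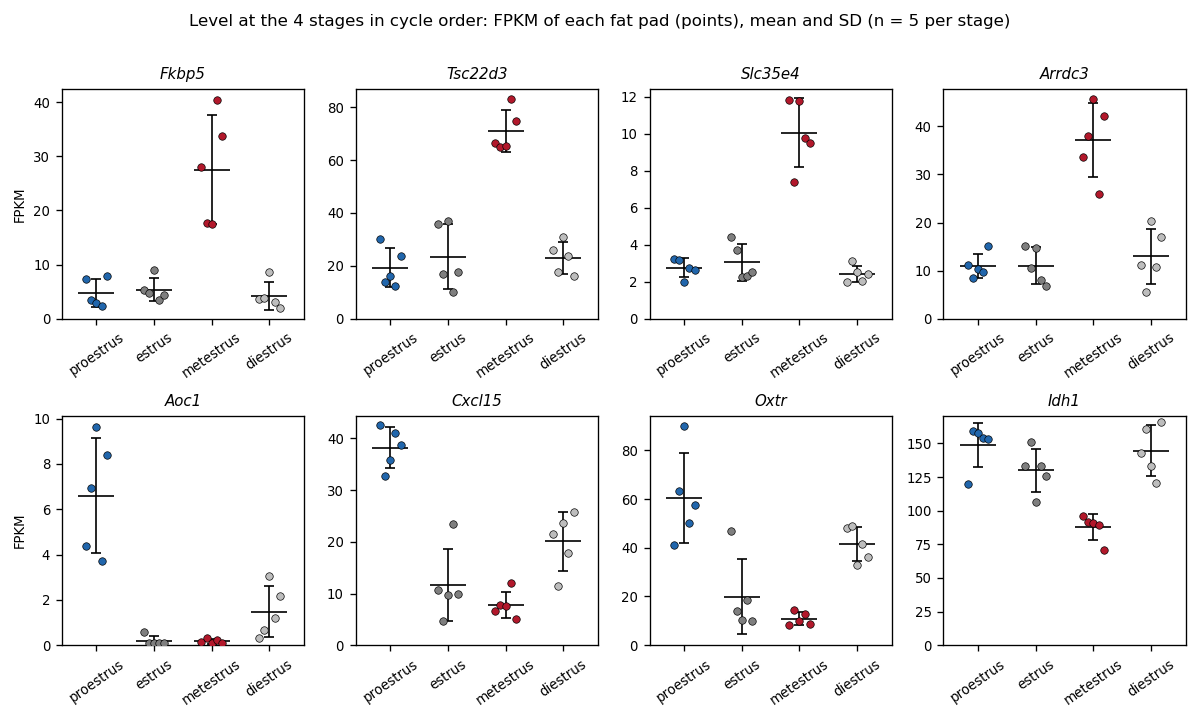
FPKM of 8 genes at the 4 stages in cycle order, each point a fat pad, with the mean as a bar and the SD as whiskers (n = 5 per stage), each panel on its own linear axis from 0. Fkbp5, Tsc22d3, Slc35e4 and Arrdc3 are high at metestrus alone, Aoc1 and Cxcl15 are high at proestrus, Oxtr is high at proestrus and diestrus, and Idh1 is lowest at metestrus (87.7 ± 9.72 FPKM).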

How the data were processed

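RNA-seq of inguinal fat from 20 mice, 5 at each stage of the cycle, was analysed, with stages taken from the sample labels. Values are FPKM that the authors deposited as 1 table. Per the labels and methods they trimmed reads with Skewer, checked them with FastQC 0.11.5 and aligned them to GRCm38 with STAR 2.5.3a. The methods name HTSeq and the submitters' notes StringTie 1.3.1c, so the tool behind the FPKM is not settled. Strand use is not given in the sources used here. The depth per sample is unknown from the FPKM, since whole reads could not be recovered (36.8% of 35375 low values lay within 0.1 of a whole step, 20% by chance), so no count test was run.

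log2(FPKM + 1) was fitted over all 20 libraries with limma 3.58.1 in R 4.3.3 (variance trend, Benjamini-Hochberg over 13987 genes, threshold 0.05), after the script had been tested on simulated data. Python 3.11.15, numpy 2.4.6, pandas 2.3.3 and scipy 1.17.1 were used. Alternatives were another pseudocount (0.1), other filters, scalings, weights, covariates, sets of libraries and a replicate block. Coordinates are GRCm38 (GENCODE), and promoters are from RefSeq (GRCm38.p6). Named genes were the called genes without overlap that changed most (up to 20 in each direction), called members of lists, up to 3 of a list by p where fewer than 3 were called, and 10 fixed genes. Dusp1, Nfkbia, Zbtb16, Foxo1, Irs2, Fasn, Elovl6, Scd2 and Cd163, like those marked in the text, were chosen after their values were seen. The comparison, members and lists were chosen with earlier results of these data known. Serum hormones were not analysed here, and some members of the lists are not reported here.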

Additional observations from a re-analysis of the deposited data

Results flagged for a closer look

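A fat pad stood apart from the other 4 of its stage, by Dixon's test at the 95% level, in 20 of the 240 groups of 5 that were tested, a test that chance passes in about 1 of 20 groups. Proestrus-2 was the pad apart for 7 genes, and it was the highest in each, with 39.7 FPKM of Dpep1, 5.34 of Pamr1, 3.78 of Adamts15, 62.6 of Mmp2, 71.4 of Timp3, 19.4 of Cd163 and 37.9 of Slc5a5. Among proestrus pads, proestrus-1 had the highest Sgk1 at 26.1 FPKM, the highest Cebpd at 7.68 FPKM and the lowest Idh1 at 119.6 FPKM, while proestrus-4 stood apart for Hsd11b1 at 31.2 FPKM. Metestrus-3 stood apart for Adrb3 (55.4 FPKM), Lep (111.7 FPKM) and, as the lowest pad, Dusp4 (4.34 FPKM), and for the summed markers of skeletal muscle (10167 FPKM), of pericytes and smooth muscle (303 FPKM) and of Schwann cells (83 FPKM). Metestrus-4 stood apart for Scd2 at 28.8 FPKM, and metestrus-5 had the lowest Idh1 of the metestrus pads at 70.9 FPKM. The muscle markers also set proestrus-5 apart, at 334 FPKM. What lies behind these pads was not tested.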

How the results depend on the processing

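The 123 calls became 494 with array weights (386 rose, 108 fell), 228 with a lymphocyte covariate, 66 on the 10 libraries alone (58 of them shared) and 292 without proestrus-2 and metestrus-3 (255 rose, 37 fell), and ran between 53 and 327 when 1 library was left out. The 147 calls of metestrus against estrus and diestrus became 655, 333, 78 and 75 with array weights, a lymphocyte covariate, no filter on low values and the replicate block, and ran between 44 and 177 with 1 library left out. The 12 of proestrus became 7 with FPKM of at least 5, 5 with equal totals, 19 with the lymphocyte covariate, 38 without both libraries and 7 with a pseudocount of 0.1, and between 4 and 16 with 1 library left out. The 12 calls of the glucocorticoid-responsive list became 7 with no filter and ran between 5 and 13 with 1 library left out. The share of calls that rose was 78.1% with array weights, 87.3% without both libraries and 55.2% with no filter. The causes were not tested. Replicate numbers did not pair the samples (same-number correlations between -0.486 and 0.361), and the replicate block left 82 calls (53 rose, 29 fell). Hsd11b1 ran between -0.25 and 0.02 with 1 library left out, reversed at 0.0244 without proestrus-4. Lpl ran between -0.03 and 0.25 in those fits, reversed at -0.0158 without metestrus-1 and -0.0326 without proestrus-3, and at -0.0500 with the lymphocyte covariate. Scalings moved the median gene by at most 0.033. With FPKM alone, no counting error could be given for low genes.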
